A study of Mus musculus with 23 samples.

Results

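The 9 genes described here are markers used for tissue macrophages: Cd68, Csf1r, Mrc1, Itgam, Cd163, C1qa, C1qb, C1qc and Lyz2. They were taken by symbol from a table of read counts for 24062 gene symbols, and all 9 had a row and were tested in every comparison. RNA of whole gastrocnemius muscle and whole fat (labelled IAT, an abbreviation the labels do not spell out) was sequenced in 23 libraries. The mutants have altered Bub1b, which encodes BubR1 of the mitotic checkpoint, and serve as a model of mosaic variegated aneuploidy with early ageing. The muscle groups were HL1002P (BubR1H/L1002P, 4 libraries), HH (BubR1H/H, 3 libraries) and WT (4 libraries), and the fat groups were HL1002P, HH and WT with 4 libraries each. All mice were 8 to 10 months old on a 129Sve/C57BL/6 mix background, were naturally aged and received no treatment that the labels name. The labels restrict the alleles to no cell type, and the tissue was not sorted, so the RNA of every cell in it was measured together. Muscle and fat RNA were extracted with different kits, so the kit and the tissue cannot be told apart.

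Macrophages live in every tissue, where they take up dying cells, debris and iron-bearing proteins and respond to infection and injury. In muscle they sit between the fibres and serve repair, and in fat they clear fat cells and take up lipid. Most of them need signals through the receptor that Csf1r encodes, and their genes are widely bound by the factor PU.1, which Spi1 encodes. None of the 9 markers is made by macrophages alone: Lyz2 and Itgam are also expressed by neutrophils, Csf1r and Itgam by monocytes, and Mrc1 by some endothelial cells.

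The members lie on 7 chromosomes in GENCODE M21, on the GRCm38 build that the authors' mm10 alignment used. C1qa, C1qb and C1qc are neighbours on chromosome 4, between 136880129 and 136898803 and all on the minus strand, with 3 merged exons each. The sequences before 4 members are shown because C1qb and C1qc lie side by side and moved together in these libraries, while Cd163 and Lyz2 moved apart in fat. They come from RefSeq on GRCm38.p6, read 5′ to 3′ on the gene's strand, and stop before any base that GENCODE places inside the gene. Capitals mark the core of the PU box, GAGGAA or its reverse complement TTCCTC.
C1qb (box on the given strand; chr4:136886201-136886450, minus strand): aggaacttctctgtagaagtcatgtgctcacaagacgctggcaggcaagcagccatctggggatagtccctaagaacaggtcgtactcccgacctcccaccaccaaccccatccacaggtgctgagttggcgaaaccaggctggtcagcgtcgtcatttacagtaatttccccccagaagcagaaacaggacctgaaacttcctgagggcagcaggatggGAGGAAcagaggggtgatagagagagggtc
C1qc (box on the other strand; chr4:136893066-136893164, minus strand): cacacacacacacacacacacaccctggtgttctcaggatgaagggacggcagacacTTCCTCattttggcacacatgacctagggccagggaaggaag
Cd163 (no box; chr6:124304401-124304650, plus strand): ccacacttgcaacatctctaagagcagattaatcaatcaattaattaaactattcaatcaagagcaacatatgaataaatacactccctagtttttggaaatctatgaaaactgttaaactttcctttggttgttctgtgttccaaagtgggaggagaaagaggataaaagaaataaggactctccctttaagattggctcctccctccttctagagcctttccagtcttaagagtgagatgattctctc
Lyz2 (no box; chr10:117282322-117282522, minus strand): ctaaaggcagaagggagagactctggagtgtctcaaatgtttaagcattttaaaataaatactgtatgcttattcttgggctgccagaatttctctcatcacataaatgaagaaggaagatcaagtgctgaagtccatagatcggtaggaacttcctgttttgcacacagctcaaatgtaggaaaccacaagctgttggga
Both strands of the 250 bases before the RefSeq start were searched for those 6 letters. Of the 7 members with a promoter in the table, 5 held the box (Cd68, Mrc1, Itgam, C1qb and C1qc), and 23.3% of 32851 promoter windows of the same length did. The box of C1qb began 30 bases and that of C1qc 193 bases before the RefSeq start. For C1qc that start lies inside the gene as GENCODE places it, so the printed sequence ends before it. Cd163 and Lyz2 had no match in their windows, which says only that these letters are not there. Csf1r and C1qa were not looked up further.

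Library totals ran from 34137821 to 55266273 counts in muscle and from 22552184 to 58828571 in fat. Levels are in CPM, counts in proportion to library sizes that were scaled by TMM over all 23 libraries, with factors of 0.594 to 0.707 in muscle and 1.26 to 1.71 in fat. Bub1b itself stood at 0.281 to 0.435 CPM in HL1002P, 0.489 to 0.797 in HH and 1.14 to 1.51 in WT muscle, with no overlap between the groups. In fat the Bub1b ranges overlapped, at 4.02 to 14.8 CPM in HL1002P, 3.9 to 9.41 in HH and 4.78 to 7.67 in WT, so there it does not check the labels. The muscle libraries held at least 241500 summed CPM of 10 myofibre genes, against 27.2 to 11360 in fat. Among fat libraries, HH replicate 1 (10360), WT replicate 3 (11360) and HL1002P replicate 4 (4170) stood far above most others. Xist, read against Y-linked transcripts, marked 2 HL1002P, 1 HH and 2 WT libraries in muscle, and 1 HL1002P, 1 HH and 2 WT libraries in fat, so sex was unbalanced in mutant fat. The labels call replicates only separate samples, so p-values measure the spread between those samples.

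All 9 markers were read in every library, from 68 Itgam counts in a WT muscle library to 107184 Lyz2 counts in an HL1002P fat library. Per kilobase of exon, Lyz2, which encodes the lysozyme of macrophages, had the highest mean in all 6 groups. It averaged 97.6 ± 54.2 CPM per kb in HL1002P, 93.4 ± 19.6 in HH and 45.3 ± 12.8 in WT muscle (SD, n = 4, 3 and 4). In fat it averaged 806 ± 327 CPM per kb in HL1002P, 685 ± 195 in HH and 370 ± 36.4 in WT (SD, n = 4 each), above every library of the next gene in each fat group. C1qb and C1qa, chains of the complement protein C1q, held the next places in every group, at 127 and 117 CPM per kb in WT fat, and their ranges overlapped everywhere. C1qc, the chain that completes C1q, followed at 64.3 CPM per kb in WT fat, and then came Cd68 and Csf1r. Mrc1, Cd163 and Itgam held the last 3 places in every group in differing order. Itgam, the CD11b integrin chain, was last in the 3 muscle groups and in WT fat, at 0.774 CPM per kb in WT muscle, and Cd163, the haemoglobin scavenger receptor, was last in HL1002P and HH fat, at 4.36 and 6.01 CPM per kb.

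**Figure D1:**
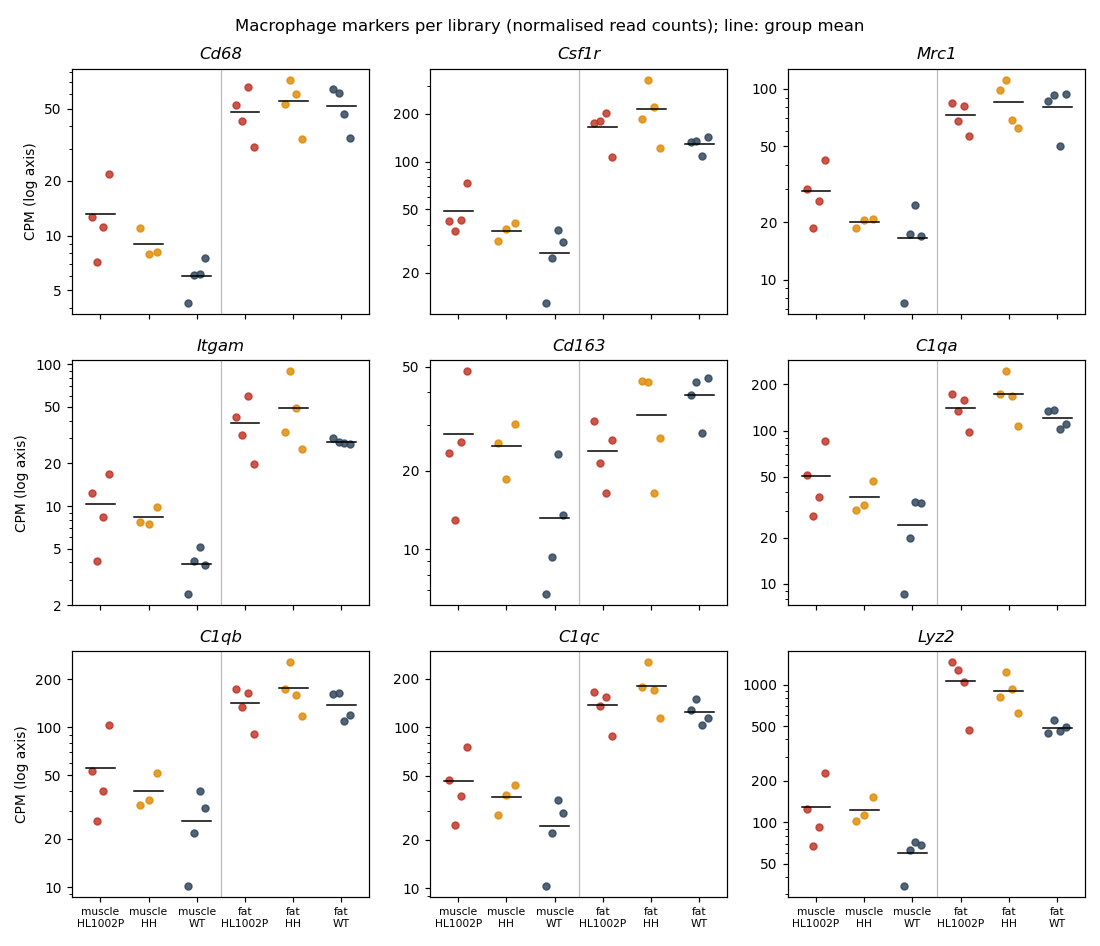
Level of each marker in every library in CPM (log axis), with mutant groups left of WT and muscle left of fat; points are libraries and lines group means. Every marker except Cd163 averages lower in muscle than in fat in each genotype, and in muscle the HL1002P library with the highest value and the WT library with the lowest are the same for all 9 markers.

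Muscle against fat asks how much marker RNA each tissue holds relative to library sizes scaled by TMM. Of the 9 markers, 8 were lower in muscle and passed the test in every genotype. Cd163 was lower and passed in WT, at −0.40 in HH it did not pass, and in HL1002P it stood at 0.21 and did not pass. With edgeR's quasi-likelihood test and Benjamini-Hochberg adjustment over 16863 genes, 8 of the 9 markers fell in HL1002P, 8 in HH and 9 in WT. Of all genes tested, 39.5% fell in HL1002P, 36.4% in HH and 41.6% in WT. Markers of other blood cells were lower in muscle as well: 10 of 10 B cell genes in each genotype, with medians of −10.31 in HL1002P, −9.83 in HH and −7.22 in WT. Of 9 T cell genes 9, 9 and 8 were lower in the same order, with medians of −6.91, −7.00 and −5.91, and of 9 neutrophil genes 9, 9 and 8, with medians of −4.66, −5.17 and −3.69. The part of these cells in the marker differences, and whether the fat samples held lymphoid tissue, was not tested. The markers' median log2 fold change was −1.57 in HL1002P, −2.28 in HH and −2.36 in WT, against −0.22, −0.20 and −0.30 over all genes. In bulk tissue, fewer cells of a type and less RNA per cell cannot be told apart.

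Lyz2 fell most evenly, by 3.05 ± 0.38 log2 in HL1002P (SE, adjusted p = 4.49e-07), 2.88 ± 0.42 in HH (adjusted p = 4.77e-06) and 3.03 ± 0.38 in WT (adjusted p = 5.35e-07). Cd68, a glycoprotein of lysosomes, read 12.6, 7.19, 11.2 and 22 CPM in HL1002P muscle, against 52.3, 42.7, 66.3 and 30.7 CPM in HL1002P fat. In WT it read 4.25, 6.07, 6.12 and 7.48 CPM in muscle, against 64.1, 61, 46.6 and 34.5 CPM in fat. Every muscle library lay below every fat library in both genotypes, and the Cd68 difference was −1.86 ± 0.31 in HL1002P, −2.61 ± 0.36 in HH and −3.11 ± 0.33 in WT (adjusted p = 2.16e-05, 2.19e-06 and 6.04e-08). Csf1r, the receptor for CSF1 and IL34, fell by 1.76 ± 0.31 in HL1002P, 2.54 ± 0.36 in HH and 2.29 ± 0.32 in WT. Itgam, which forms complement receptor 3 with Itgb2, differed by −1.88 ± 0.40 in HL1002P, −2.57 ± 0.46 in HH and −2.87 ± 0.43 in WT.

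The 3 C1q chains fell together. C1qa fell by 1.49 ± 0.37 log2 in HL1002P, 2.24 ± 0.42 in HH and 2.33 ± 0.38 in WT. C1qb fell by 1.35, 2.15 and 2.43 and C1qc by 1.57, 2.28 and 2.36 in the same order of genotypes. In HL1002P the C1qb level in muscle replicate 4, 103 CPM, lay above the lowest fat library, 91.4 CPM, so there the groups overlapped. Mrc1, the mannose receptor of resident macrophages, fell by 1.31 ± 0.30 in HL1002P, 2.10 ± 0.34 in HH and 2.28 ± 0.31 in WT. Muscle and fat libraries did not overlap for 7 markers in HL1002P, 8 in HH and 9 in WT, all lower in muscle, where 36%, 36.7% and 34.6% of all genes tested did so.

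Cd163, which takes up haemoglobin bound to haptoglobin, was the exception. It read 23.4, 12.9, 25.7 and 48.1 CPM in HL1002P muscle, against 31.1, 21.4, 16.4 and 26.2 CPM in HL1002P fat. In WT it read 6.74, 9.34, 23.2 and 13.5 CPM in muscle, against 38.8, 43.6, 27.8 and 45.3 CPM in fat. The tissues overlapped in HL1002P and lay apart in WT. The difference was 0.21 ± 0.39 log2 in HL1002P (adjusted p = 0.629), −0.40 ± 0.42 in HH (adjusted p = 0.398) and −1.56 ± 0.40 in WT (adjusted p = 0.00152). Scaling by library totals alone lowers the median of all genes to −1.53, −1.42 and −1.47, and Cd163 then reads −1.09 in HL1002P, −1.60 in HH and −2.72 in WT and passes the test in all 3. Relative to those medians Cd163 lay higher in HL1002P under both scalings. Without HL1002P muscle replicate 4 the HL1002P value is −0.20.

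**Figure D2:**
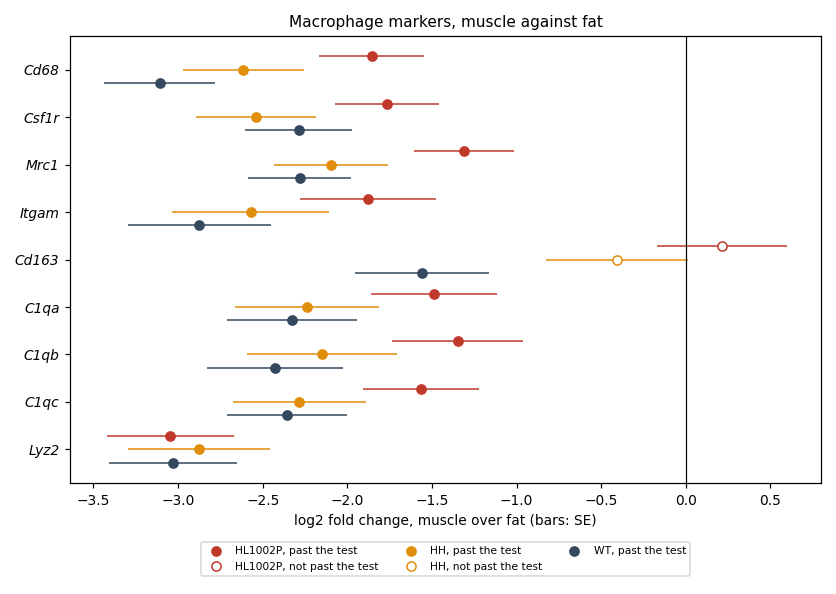
Log2 fold change of each marker, muscle over fat, within HL1002P (top of each trio), HH and WT; bars are SE and filled points passed the test (edgeR, adjusted p under 0.05). All markers lie left of 0 except Cd163 in HL1002P, at 0.21, and Cd163 is the sole marker with open points.

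In muscle, HL1002P against WT asks whether the mutant muscle holds more marker RNA. All 9 markers were higher on average in HL1002P and none passed the test over 14580 genes, of which 0.117% did (17 genes). Their log2 differences ran from 0.83 (Mrc1) to 1.44 (Itgam) with a median of 1.07, against 0.0039 over all genes. All 9 had an unadjusted p under 0.05, as did 1537 of the 14580 genes. By DESeq2, 3 of the markers (Cd68, Itgam and Lyz2) and 188 genes in all passed. HL1002P replicates 1, 3 and 4 lay above all 4 WT libraries for each of the 9 markers, and HL1002P replicate 2 lay within the WT range for each, so no marker's groups were apart, whereas 3.09% of all genes were apart and higher and 2.57% apart and lower.

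Itgam read 12.4, 4.07, 8.36 and 16.8 CPM in HL1002P muscle, against 2.39, 4.11, 5.18 and 3.87 CPM in WT muscle. Its difference was 1.44 ± 0.36 log2 (adjusted p = 0.244), from 116 to 580 counts per HL1002P library and 68 to 147 per WT library. Lyz2 read 124, 67.3, 92.5 and 230 CPM in HL1002P muscle, against 34.8, 63.4, 71.6 and 68.8 CPM in WT muscle. That difference was 1.12 ± 0.33 (adjusted p = 0.291), and without HL1002P replicate 4 it is 0.69. Cd68 differed by 1.16 ± 0.30 (adjusted p = 0.244) and Csf1r by 0.90 ± 0.29 (adjusted p = 0.319). The scavenger receptors and the C1q chains differed by 0.83 to 1.12.

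The summed level of the 9 markers was 396, 225, 321 and 696 CPM in HL1002P muscle, against 97.8, 189, 277 and 236 CPM in WT muscle. HL1002P replicate 4 was the highest and WT replicate 1 the lowest library for every marker. With both left out, the Itgam difference is 0.94 and the Lyz2 difference 0.51, and 0 markers pass. Of 9 neutrophil genes, 7 averaged under 1 CPM in HL1002P muscle, and all 9 did in WT muscle, with summed levels of 1.47 to 11.7 CPM in HL1002P and 0.843 to 4.38 in WT, where Elane was at 0. Of the 4 neutrophil genes tested 3 were positive, with values of −0.68 to 1.57 log2, 0 passed and 1 had an unadjusted p under 0.05. Of 9 T cell genes 7 were tested and all 7 were positive, with a median of 0.92, 0 passing and 0 with such a p, and with summed levels of 9.56 to 17.25 CPM in HL1002P and 6.99 to 10.9 in WT. Of 8 dendritic cell genes 6 were positive, with a median of 0.45, 0 passing and 2 with such a p. Their sums were 12.2 to 16.8 CPM in HL1002P and 9.55 to 14.1 in WT. Over all 14580 genes tested, 1537 had such a p. The 10 B cell genes averaged under 1 CPM each in both groups. The part of these cells in the marker values was not tested.

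In HH muscle the mean level of each marker lay between those of HL1002P and WT muscle. All 9 were higher on average than in WT, by 0.31 (Mrc1) to 1.14 (Itgam) log2 with a median of 0.64, against 0.013 over all genes, and none passed the test, which 0.377% of genes did. Unadjusted, 3 markers had p under 0.05 (Itgam, Cd163 and Lyz2), as did 2413 of the 14580 genes tested. DESeq2 passed 1 marker (Lyz2) among 653 genes. HH and WT libraries did not overlap for Cd68, Itgam and Lyz2, all higher in HH, where 7.38% of all genes lay apart in that direction and 6.56% in the other. Lyz2 read 103, 114 and 152 CPM in HH muscle, a difference from WT of 1.08 ± 0.35 (adjusted p = 0.165). Itgam read 7.75, 7.43 and 9.79 CPM in HH muscle and differed by 1.14 ± 0.38 (adjusted p = 0.177). Both comparisons use the same 4 WT libraries, so the low WT replicate 1 enters both.

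HL1002P against HH in muscle separated no marker. The differences ran from 0.035 to 0.53 log2 with a median of 0.39. The median was 0.14 with the replicate number as a block, where HL1002P replicate 4 had no same-numbered HH library. It was −0.022 without HL1002P replicate 4. By edgeR, with or without the block, and by DESeq2 0 markers passed, and without the block none had an unadjusted p under 0.05. Of all genes, 0.0206% passed by edgeR. The ranges of the groups overlapped for all 9 markers, whereas 2.76% of all genes were apart and higher in HL1002P and 2.61% apart and lower.

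**Figure D3:**
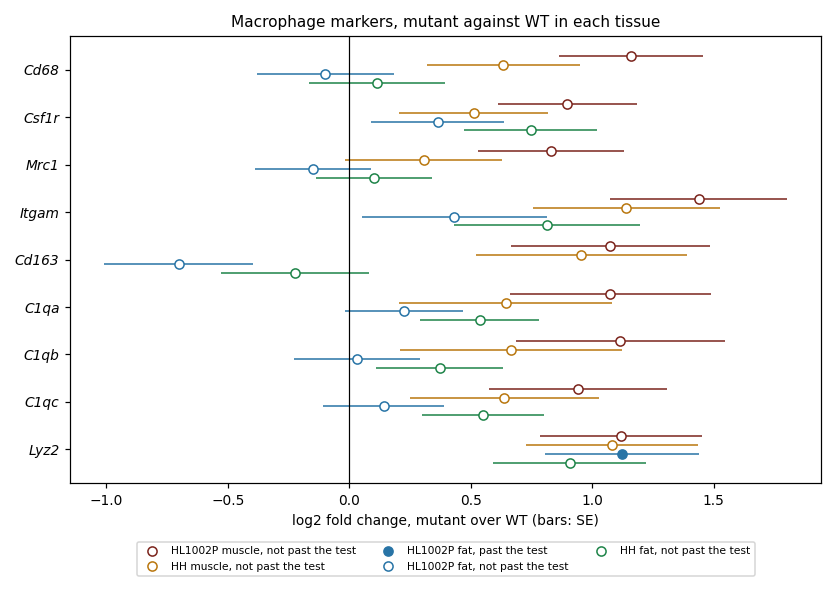
Log2 fold change of each marker, mutant over WT, for HL1002P muscle, HH muscle, HL1002P fat and HH fat from top to bottom; bars are SE and filled points passed the test (edgeR, adjusted p under 0.05). In muscle all 18 points lie right of 0 and none is filled, and in fat the markers spread from −0.70 (Cd163, HL1002P) to 1.12 (Lyz2, HL1002P), the single filled point.

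In fat the markers did not move together. Of the 9, 1 rose in HL1002P against WT, Lyz2, and none fell, while 31.8% of 16266 genes passed the test (17.3% higher and 14.5% lower). The median log2 difference of the markers was 0.14, against −0.068 over all genes. Lyz2 read 1449, 1284, 1044 and 465 CPM in HL1002P fat, against 445, 553, 460 and 492 CPM in WT fat. Replicates 1 to 3 of HL1002P were well above all WT libraries, and replicate 4 lay within the WT range. The difference was 1.12 ± 0.32 log2, 2.18-fold (adjusted p = 0.0238), and it no longer passed without WT replicate 1 or without HL1002P replicate 1, 2 or 3, with values of 0.94 to 1.18.

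HL1002P replicate 4, the library with the lowest Lyz2 level of its group, was also the one HL1002P fat library with Xist, so sex and that library cannot be told apart. Its myofibre sum was 4170 CPM, against 116 to 270 in replicates 1 to 3. Its B cell sum was 822 CPM, against 2115 to 2408, and its T cell sum 316, against 618 to 647. The part of these differences in its Lyz2 level was not tested. Over libraries with Y-linked transcripts (3 HL1002P, 2 WT) the difference was 1.34 ± 0.28 and passed the test, as did 46.1% of all genes. With sex as a term in the fit it was 0.87 ± 0.28 and passed.

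The other markers differed little or in the other direction in HL1002P fat. Cd163 read 31.1, 21.4, 16.4 and 26.2 CPM in HL1002P fat, against 38.8, 43.6, 27.8 and 45.3 CPM in WT fat, a difference of −0.70 ± 0.31 (adjusted p = 0.0951). Only 1 of the HL1002P libraries reached the WT range. Cd68 differed by −0.098 ± 0.28 and Mrc1 by −0.15 ± 0.24, Csf1r by 0.36 ± 0.27 and Itgam by 0.43 ± 0.38. C1qa, C1qb and C1qc differed by 0.23, 0.031 and 0.14. No marker's groups were apart, whereas 15.1% of all genes were apart and higher and 12.4% apart and lower.

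HH fat leaned higher without a call. None of the 9 markers passed the test by edgeR, which 20.8% of all genes did (12.3% higher and 8.59% lower). Unadjusted, 3 markers had p under 0.05 (Lyz2, Csf1r and C1qa), as did 6418 of the 16266 genes tested. DESeq2 passed 2 markers (Lyz2 and Csf1r) and 32% of all genes. The median difference was 0.54 log2, against −0.056 over all genes, and 8 of the 9 were positive. Lyz2 read 813, 1237, 933 and 625 CPM in HH fat, all above the 445 to 553 CPM of WT fat, a difference of 0.91 ± 0.32 (adjusted p = 0.0605). It was the single marker whose HH and WT libraries did not overlap, and 15% of all genes lay apart in that direction and 10.9% in the other. Csf1r read 185, 327, 222 and 123 CPM in HH fat, against 132, 136, 108 and 142 CPM in WT fat, a difference of 0.75 ± 0.28 (adjusted p = 0.0718). HH replicate 4, the HH fat library with Xist, was the lowest of its group for 8 of the 9 markers, all but Cd163, and so was replicate 4 in HL1002P fat.

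Without HH replicate 4, 4 markers rose (Csf1r, C1qa, C1qc and Lyz2), with Lyz2 at 1.10, where 19.1% of all genes passed in either direction. Over libraries with Y-linked transcripts (3 HH, 2 WT) 2 rose, Csf1r at 0.91 and Lyz2 at 1.04, where 37.7% of all genes passed. HH has 1 fat library with Xist, so sex and that library cannot be told apart here either.

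HL1002P against HH in fat separated no marker by edgeR or DESeq2, and none had an unadjusted p under 0.05. The differences ran from −0.48 to 0.22 log2 with a median of −0.34, and 0% of all genes passed by edgeR (20 genes by DESeq2, and 535 had an unadjusted p under 0.05).

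Whether a mutant's effect differed by tissue was tested as an interaction over 11870 genes. For HL1002P, Cd163 was the only marker to pass, where 19% of all genes did: it stood 1.71 ± 0.55 log2 higher in muscle than in fat relative to WT (adjusted p = 0.0367). The call was lost without any single one of 11 of the 16 libraries, with values of 1.30 to 1.87, and also with no filter on low counts (1.77), library totals alone (1.63) and with the replicate number as a block (1.66). Cd68 had 1.18 ± 0.43 (adjusted p = 0.0597) and Mrc1 0.91 ± 0.41 (adjusted p = 0.118). Lyz2, which was higher in HL1002P in both tissues, had −0.078 ± 0.50 (adjusted p = 0.921). For HH no marker passed by edgeR or DESeq2 and none had an unadjusted p under 0.05, where 7.39% of all genes passed. The HH median was 0.13, and Cd163 had 1.11 ± 0.56 (adjusted p = 0.205).

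Ratios of read counts within a library do not depend on library scaling, and those of Lyz2 separated mutant from WT fat in both mutants. Lyz2 counts per Cd163 count were 46.5, 60, 63.5 and 17.8 in HL1002P fat, 18.4, 28.2, 56.8 and 23.4 in HH fat, and 11.5, 12.7, 16.5 and 10.9 in WT fat. Every mutant fat library lay above every WT fat library. In muscle the same ratio averaged 4.72 ± 0.79 in HL1002P, 5.06 ± 1.05 in HH and 5.03 ± 1.52 in WT (SD, n = 4, 3 and 4), with overlapping ranges. Lyz2 per count of the summed C1q chains averaged 2.46 ± 0.67 in HL1002P fat, 1.73 ± 0.16 in HH fat and 1.29 ± 0.19 in WT fat (SD, n = 4 each), and both mutant groups lay above WT. Cd163 per C1q count was 0.0604 ± 0.0249, 0.0635 ± 0.0232 and 0.102 ± 0.0197 in HL1002P, HH and WT fat, against 0.182, 0.222 and 0.183 in HL1002P, HH and WT muscle. The members of these ratios were chosen after their values were seen, so the ratios are given without a test.

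**Figure D4:**
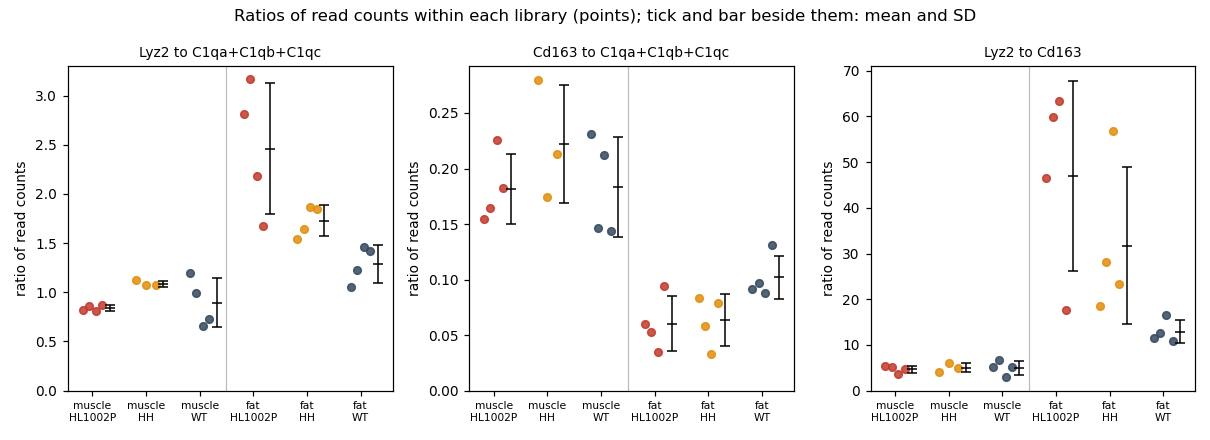
Ratio of read counts within each library for Lyz2 to the C1q chains, Cd163 to the C1q chains and Lyz2 to Cd163, by group with mutants left of WT and muscle left of fat; points are libraries and the bars beside them mean and SD. The Lyz2 to Cd163 ratio stays near 5 in all muscle groups and lies between 17.8 and 63.5 in mutant fat, above all WT fat libraries.

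C1qa and C1qb, made in equal numbers for 1 protein, gave near equal counts. Their ratio averaged between 0.884 (WT fat) and 1.01 (HL1002P fat) over the 6 groups. Lyz1, the neighbour and close relative of Lyz2 on chromosome 10, had 0.153 to 0.256 counts per Lyz2 count on average. In GENCODE M21, 15.4% of the 50-base words of Lyz2 exons also occur in Lyz1, so reads could be split between them. Itgam shares 66.3% of its 50-base words with Gm49368, a predicted gene on the same strand, and Csf1r shares 14.3% with Hmgxb3, which overlaps it on the other strand in a library that keeps no strand. Counts of Itgam, Csf1r and Lyz2 are uncertain to that extent, and no other marker shared more than 0.109%.

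Across the 11 muscle libraries the 9 markers moved as 1 unit. Pearson's r of log2 CPM over the 36 pairs ran from 0.847 to 0.991 with a median of 0.919, and after centring each genotype the median was 0.879. Across the 12 fat libraries r ran from −0.305 (Cd163 with Lyz2) to 0.983 (C1qa with C1qc) with a median of 0.732. After centring each genotype the fat median was 0.798 and the lowest r −0.0504 (Cd163 with Cd68), and Cd163 with Lyz2 had 0.109. Cd163 was the member that stood apart, with r from −0.305 to 0.602 (Mrc1), and from −0.0504 to 0.641 after centring. These are descriptions: the libraries share genotype groups and depth, and the markers of 1 library share its normalisation.

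**Figure D5:**
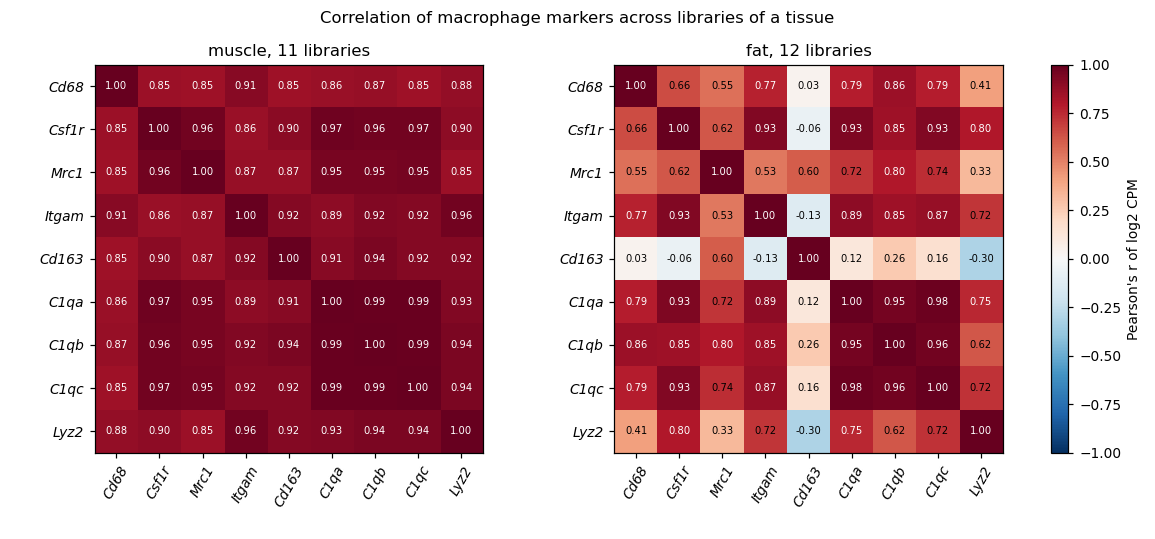
Pearson's r of log2 CPM between each pair of markers across the 11 muscle libraries (left) and the 12 fat libraries (right). All muscle pairs lie at 0.847 or above, and in fat, with genotypes not centred, the Cd163 row holds the low and negative values.

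The genes most like the markers' mean, by Pearson's r of log2 CPM over the libraries of a tissue, differed between tissues. In muscle, out of 12134 genes, they were Sash3, Ccl6, Fxyd5, Itgb2, C3ar1 and Alox5ap, with r from 0.987 to 0.972 over 11 libraries. In fat, out of 14338 genes, they were Pigz, Clec1a, Cyp2ab1, Ackr2, Ms4a6d and Ctsa, with r from 0.932 to 0.898 over 12 libraries. Spi1, which encodes PU.1, had r = 0.948 in muscle and 0.778 in fat.

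A list of 40 other macrophage genes was read beside the 9 markers. In muscle 38 were tested and 0 passed in either mutant. In HL1002P muscle 33 of them were positive and 20 had an unadjusted p under 0.05, with a median of 0.83. In HH muscle 33 were positive and 11 had such a p, with a median of 0.57. Among all 14580 genes tested, 1537 had such a p in HL1002P muscle and 2413 in HH muscle. Msr1, a scavenger receptor, had 1.68 ± 0.36 in HL1002P (adjusted p = 0.148) and 1.79 ± 0.38 in HH (adjusted p = 0.0627). Slc40a1, the iron exporter ferroportin, had −0.90 ± 0.18 in HL1002P (adjusted p = 0.107) and −0.87 ± 0.19 in HH (adjusted p = 0.0718). Between HL1002P and HH muscle 0 of the 38 passed and 0 had an unadjusted p under 0.05 as well, with Fcgr2b, the inhibitory Fc receptor, at 0.92 ± 0.42 and Ctss at 0.66 ± 0.37.

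In fat 11 of the 40 rose and 1 fell in HL1002P, where 17.3% of all genes rose and 14.5% fell, and 8 rose and 1 fell in HH, where 12.3% rose and 8.59% fell. The list's median was 0.13 log2 in HL1002P, with 26 positive and 14 negative. In HH it was 0.41, with 30 positive and 10 negative. Their summed level averaged 2985 CPM in HL1002P, 3431 in HH and 3915 in WT fat, so the list did not rise as a whole. Marco, a scavenger receptor, averaged 236.5 ± 139.9 CPM in HL1002P, 240 ± 86.3 in HH and 22.5 ± 17.4 in WT fat (SD, n = 4 each), a rise of 3.39 ± 0.77 log2 in HL1002P and 3.43 ± 0.77 in HH. Timd4, a receptor for phosphatidylserine on dying cells, averaged 123 ± 64.6 CPM in HL1002P, 176 ± 62.3 in HH and 15.1 ± 9.39 in WT fat (SD, n = 4 each), a rise of 3.03 ± 0.63 log2 in HL1002P (adjusted p = 0.0097) and 3.56 ± 0.64 in HH (adjusted p = 0.0114). Lyve1, a hyaluronan receptor of resident macrophages and lymphatic vessels, rose by 2.08 ± 0.41 in HL1002P and 2.21 ± 0.41 in HH. Laptm5, a lysosomal protein of blood cells including lymphocytes, rose by 1.54 ± 0.31 and 1.63 ± 0.31, Cd84 by 1.08 ± 0.21 in HL1002P, and Siglec1, a sialic acid receptor, by 2.36 ± 0.45 in HH. Between the mutants 0 of the 40 passed in fat and 4 had an unadjusted p under 0.05, as did 535 of all 16266 genes. Mertk, a receptor for dying cells, had −1.09 ± 0.28 and Cbr2 −0.52 ± 0.19 (adjusted p = 0.999 for both).

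Of the 40, 31 were lower in muscle than in fat in HL1002P, 33 in HH and 34 in WT, and 1, 1 and 2 were higher. Of all genes 39.5%, 36.4% and 41.6% were lower in the same order, and 33.5%, 32% and 31.9% higher. Cd84 differed by −3.98 ± 0.35 in HL1002P, −3.89 ± 0.40 in HH and −3.82 ± 0.35 in WT, Msr1 by −3.76 ± 0.34, −3.61 ± 0.38 and −3.92 ± 0.36 in the same order, and Aif1 by −4.04 ± 0.39 in HL1002P. Siglec1 fell by 5.86 ± 0.65 in HH and Ctss, a lysosomal protease, by 3.51 ± 0.37 in WT. Marco had 7 counts in the 4 HL1002P muscle libraries together and 66558 in HL1002P fat, and 4 in the HH muscle libraries and 57669 in HH fat. Maf, a transcription factor that muscle also expresses, was 2.31 ± 0.20 higher in WT muscle. Of the 40, 32 were tested for a difference of effect between tissues. For HL1002P 2 of the 32 passed, where 19% of all genes did. Both had a higher effect in muscle than in fat, F13a1 (1.42 ± 0.45, adjusted p = 0.0373) and Fcgr3 (1.39 ± 0.46, adjusted p = 0.0405). For HH 1 of the 32 passed, where 7.39% of all genes did, Maf with a lower effect in muscle (−0.95 ± 0.28, adjusted p = 0.0468).

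Of 14 other complement genes, all were tested in each tissue. In muscle 0 passed in either mutant, and 14 were positive in HL1002P (6 with an unadjusted p under 0.05) and 12 in HH (3 with such a p). Among all 14580 genes tested in muscle, 1537 had such a p in HL1002P and 2413 in HH. Itgb2, the partner of Itgam, differed by 1.10 ± 0.37 in HL1002P muscle (adjusted p = 0.341), C3ar1, a receptor for a C3 fragment, by 1.22 ± 0.41 (adjusted p = 0.346), and Cfd, a serine protease that fat cells secrete, by 1.82 ± 0.52 in HH muscle (adjusted p = 0.123), where Itgb2 differed by 0.89 ± 0.39. Between the mutants 0 of the 14 passed in either tissue; C5ar1 had 0.71 ± 0.41 and C6, of the terminal pathway, 1.31 ± 0.82 in muscle, and Cfd had −0.40 ± 0.27 and C6 −0.68 ± 0.47 in fat. In fat 1 rose and 1 fell in HL1002P, where 17.3% of all genes rose and 14.5% fell. In HH fat 3 rose and 1 fell, where 12.3% of all genes rose and 8.59% fell. Itgb2 rose by 0.99 ± 0.29 in HL1002P and 0.96 ± 0.29 in HH, and C5ar1, the receptor for a C5 fragment, fell by 1.08 ± 0.31 in HH and to 0.499-fold of WT in HL1002P. Cfd rose by 1.15 ± 0.27 and C3, the central complement protein, by 1.02 ± 0.28 in HH fat. Of the 13 tested for a difference of effect between tissues, 2 passed for HL1002P, where 19% of all genes did. These were C5ar1 (1.97 ± 0.51, adjusted p = 0.0186) and C3ar1 (2.18 ± 0.60, adjusted p = 0.0231), both with a higher effect in muscle. For HH 0 of the 13 passed, where 7.39% of all genes did, with C3ar1 at 1.95 ± 0.62 and C5ar1 at 1.34 ± 0.53.

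Of the 14, 12 were lower in muscle than in fat in HL1002P, 13 in HH and 14 in WT, and 0 were higher. The shares of all genes that were lower were 39.5%, 36.4% and 41.6% in the same order, and 33.5%, 32% and 31.9% were higher. Itgb2 fell by 3.63 ± 0.38 in HL1002P, 3.82 ± 0.44 in HH and 3.73 ± 0.39 in WT. C2 and Cfb carry the protease of the C3-cleaving enzymes. C2 differed by −2.52 ± 0.28 in HL1002P, −2.95 ± 0.32 in HH and −3.10 ± 0.29 in WT, and Cfb by −3.25 ± 0.39, −3.58 ± 0.45 and −4.03 ± 0.41 in the same order. Cfd fell by 4.09 ± 0.48 in HL1002P and Itgax, another integrin chain, differed by −3.72 ± 0.50 in HH and −4.20 ± 0.45 in WT.

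Most of the B, T and dendritic cell genes listed rose in mutant fat, where 17.3% of all genes rose in HL1002P and 12.3% in HH. The summed level of 10 B cell genes was 822 to 2408 CPM in HL1002P, 1083 to 2110 in HH and 16.3 to 411 in WT fat, and 10 of 10 rose in HL1002P and 9 in HH. The sum of 9 T cell genes was 316 to 647 CPM in HL1002P, 305 to 655 in HH and 48.2 to 178 in WT fat, and 9 of 9 rose in HL1002P and 7 in HH. Of 8 dendritic cell genes 5 rose in each mutant, with sums of 119 to 238 CPM in HL1002P, 127 to 264 in HH and 39.6 to 72.8 in WT fat. Of 9 neutrophil genes 1 rose in each mutant, a smaller share than over all genes. Yet 8 of the 9 were positive in each mutant, with medians of 2.19 log2 in HL1002P and 2.14 in HH. In each mutant 4 of them had an unadjusted p under 0.05, as did 7481 of 16266 genes in HL1002P and 6418 in HH. The neutrophil sums were 123 to 287 CPM in HL1002P, 74.4 to 359 in HH and 17 to 347 in WT fat. Ltf alone averaged 75.9, 100 and 111 CPM of these sums in the same order. No gene of these 4 lists was at 0 in all libraries of a fat group. The adipocyte sum averaged 11590 CPM in HL1002P, 14260 in HH and 21380 in WT fat, and the fibroblast sum 2404, 2545 and 6177 CPM in the same order. The part of these cells in the Lyz2, Itgam and Cd163 values of fat, and in the rises of Timd4, Lyve1 and Laptm5, was not tested.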

How the data were processed

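Whole-tissue RNA was made into libraries with the TruSeq RNA Library Prep Kit v2, per the labels' protocols, a kit that does not mark strand. The submitters' processing notes name the mm10 build, TopHat2 2.0.14, Bowtie2 2.2.6 and featureCounts 1.4.6 of Subread; annotation, strand setting and treatment of multiply mapped reads are not given in the sources used here. Raw counts per gene symbol were deposited by the authors for 23 libraries. These reads carry no molecular identifiers, so p-values and errors treat reads, not molecules.

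R 4.3.3 and edgeR 4.0.16 were used: TMM scaling, filterByExpr by group, quasi-likelihood F tests and Benjamini-Hochberg adjustment over every gene tested, with a threshold of 0.05; the procedure was checked on simulated data. Genotypes were compared within one fit per tissue, tissues and interactions within a fit of the 23 libraries; interactions required 1 CPM on average in both tissues. SE is the log2 fold change over the square root of F. Levels are CPM (TMM, with SD over libraries), and log2 CPM for correlations used a prior count of 2. Non-overlap within a tissue was read on that tissue's own scaling. Exon lengths and positions came from GENCODE M21, which replaced the RefSeq lengths first planned and held 22750 of the 24062 symbols. The HL1002P and HH comparisons share the WT libraries. No 2 libraries of a group were near identical (lowest chi-square per degree of freedom 32.95). Sex, which the labels do not give, was read from Xist against Ddx3y, Eif2s3y, Uty and Kdm5d.

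Alternatives were DESeq2 1.42.0, other scalings and filters, a replicate block, sex as a term, the compared groups alone and each library left out; 3 more were added after seeing the data. The replicate block was a term for the replicate number over all libraries of a fit, WT included, in every comparison. Same-numbered HL1002P and HH muscle libraries deviated together (r = 0.253, 0.31 and 0.239 across genes), and HH muscle has no replicate 4. In no other comparison was every pair over 0.1. The labels name no such pairing, and the main fits used no block. These same-numbered libraries also matched in sex as read from Xist, and the part of sex in their likeness was not tested.

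The members, the gene lists and the tests were chosen with earlier results of these data known. The 9 members were always named; of the 2 lists of other macrophage and complement genes, up to 4 genes past the test with the smallest p were named per comparison, or the 2 with the smallest p where none passed. Genes most like the members' mean were the 6 with the highest r, passing over predicted genes.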

Additional observations from a re-analysis of the deposited data

Results flagged for a closer look

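Cd163 was singled out because the effect of HL1002P differed between the tissues by an interaction test. It was the only 1 of the 9 markers to pass, where 19% of all 11870 genes tested did. Relative to WT it stood 1.71 log2 higher in muscle than in fat (edgeR, adjusted p = 0.0367), with a positive difference in muscle and a negative one in fat, neither of which passed on its own. HL1002P muscle replicate 4 held the highest Cd163 level of its group, 48.1 CPM, and WT muscle replicate 1 the lowest of its group, 6.74 CPM. Without each in turn the interaction was 1.30 and 1.49, and neither passed. Of the 16 fits that left 1 library out, Cd163 passed in 5. No single library stood apart by Dixon's criterion for any marker in the groups of 4.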

How the results depend on the processing

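The 9 markers kept their direction against WT in muscle, and in muscle against fat, in each setting run, except Cd163 in HL1002P between tissues (−1.09 with library totals alone, −0.20 to 0.45 with 1 library left out). Markers past the test in muscle were 3 for HL1002P and 1 for HH by DESeq2. In HL1002P fat they were 2 with the replicate block, which brought in Cd163 at −0.72, 0 with Xist libraries and 0 to 1 with 1 library left out. In HH fat they were 1 with library totals alone (20% of all genes), 2 by DESeq2 (32%) and 1 with the compared groups alone (16.8%). They were 2 with Y-linked libraries (37.7%) and 5 without both mutant libraries with Xist (Csf1r, Itgam, C1qa, C1qc and Lyz2, with 25.3% of all genes). With 1 library left out they were 0 to 4. The HL1002P effect between tissues passed for 0 markers with library totals alone, without a filter and with the replicate block, 2 by DESeq2, and 0 to 2 with 1 library left out. For HL1002P against HH muscle the replicate block gave a median of 0.14 against 0.39 without it and changed no call. The cause of these changes was not tested.

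Small differences in fat turned direction. In HL1002P fat, library totals alone gave Cd68 0.11 and Mrc1 0.038, sex as a term C1qb −0.14 and C1qc −0.041, Y-linked libraries C1qb −0.036, and leaving out both mutant libraries with Xist Cd68 0.12 and Mrc1 0.0048. Xist libraries, a fit with 1 mutant library that could not show a call, gave Csf1r −0.20, Itgam −0.46, C1qa −0.096, C1qb −0.30, C1qc −0.27 and Lyz2 −0.0084. In HH fat, sex as a term gave Cd68 −0.084 and Mrc1 −0.018, and Xist libraries gave Cd68 −0.25, Csf1r −0.023, Mrc1 −0.20, Itgam −0.12 and C1qa −0.00048. With 1 library left out, HL1002P fat gave C1qb −0.086 to 0.25, Cd68 −0.25 to 0.12 and Mrc1 −0.32 to 0.0048, and HH fat gave Cd163 −0.39 to 0.036, Cd68 −0.039 to 0.34 and Mrc1 −0.068 to 0.28. Medians ran from −0.022 to 0.56 for HL1002P against HH muscle and from −0.088 to 0.39 for the HH effect between tissues, and the HL1002P effect on Lyz2 from −0.51 to 0.13.

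Over all genes, DESeq2 called 188 against 17 in HL1002P muscle, 653 against 55 in HH muscle, 40 against 3 between the mutants in muscle, 20 against 0 in fat, 5210 against 3391 in HH fat and 1624 against 877 for the HH effect. In HH muscle the replicate block called 203 and sex as a term 225. The compared groups alone called 8 in HL1002P muscle, 85 in HH muscle and 1 between the mutants in fat, library totals alone 10 in HL1002P muscle and 564 for the HH effect, and a stricter filter 11 in HL1002P muscle. Without a filter 1485 were called for the HL1002P effect, against 2255, and 483 for the HH effect. Y-linked libraries called 2, 6 and 6246 in HL1002P muscle, HH muscle and HH fat, and Xist libraries 0, 15 and 0 there, 1 between the mutants in muscle, and 0 in HL1002P fat against 5167. Without the outermost muscle libraries 4 were called in HL1002P muscle. Groups of 3 or 4 libraries, 1 Xist library in each mutant fat group and unsorted tissue limit these results. Without length scaling, 32 ranks of level moved and 22 did not.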
